A study of Mus musculus with 15 samples.

Results

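The acrosome is the cap of digestive and adhesive proteins that a sperm carries over its nucleus, and the genes described here encode proteins of its matrix, of the sperm surface that meets the egg coat, and of the fusion of sperm and egg. The 10 genes were taken by symbol from 23510 gene IDs in the table, of which 21143 have a RefSeq symbol. All 10 were present and all had a mean of 1 FPKM or more over the libraries, so each was tested among 14514 genes. FPKM is a count of sequenced fragments divided by gene length and by the total mapped from the library, so that levels of different genes can be set side by side.

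The acrosome is built in round spermatids from Golgi vesicles, and its matrix holds the protease acrosin as an inactive precursor. On contact with the cumulus and the zona pellucida, the coat of the egg, the acrosome releases its content, and fusion proteins become exposed on the sperm head. The genes are transcribed late in male meiosis and in spermatids, before the nucleus is packed with protamines.

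RNA was sequenced from 15 mouse testis libraries, 3 in each of 5 groups, all from male ICR mice, an outbred stock. The methods give an age of 5 weeks at the injection of lentivirus into the testes, which were collected 10 days later. Con is labelled only as control, and whether its testes were injected is not stated in the sources used here. MNC received the vector control with a non-targeting hairpin (shNC), and M1, M3 and M5 received lentivirus with a mixture of short hairpin RNAs against the muscarinic acetylcholine receptor of that name. The share and type of cells reached by the virus are not given in the sources used here, and the RNA is that of the whole testis with all its cell types. In such bulk RNA, fewer cells of a type and less RNA per cell cannot be told apart. The labels do not say that the libraries of a group came from separate animals, so p-values measure only the spread between these libraries.

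The libraries summed to between 470243 and 513817 FPKM, and their depth relative to each other, from the steps between low values of 10 to 13 genes, lay between 0.970 and 1.009. The absolute depth is unknown. Transcripts of the targeted receptors were near the lowest values of the table, with Chrm5 at 0.22 to 0.37 FPKM in the M5 libraries and 0.23 to 0.43 in those of MNC. Chrm1 lay between 0.06 and 0.17 FPKM and Chrm3 between 0.01 and 0.11 over all 15 libraries, so the targeted transcripts do not check the labels. Of the 3 libraries labelled M3, replicate 3 stood apart. On a scale set to 0 at the MNC mean and 1 at the M5 mean over 819 genes that differed between M5 and MNC, without the genes described here, it lay at 0.829. The other M3, M1 and Con libraries lay between 0.114 and 0.220. Counts and differences of M3 against Con are therefore given with and without this library.

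Promoter sequences are shown for 4 of the genes, because they belong to the patterns described below: Acrbp, which was low in M5 together with Acr, Crisp2 and Izumo1, which were both low in Con, and Zp3r, which varied most between libraries. RefSeq promoters on GRCm38.p6 were matched for 9 of the 10 genes, all but Acr. Each run covers 250 bases before the transcription start and 50 from it, read 5′ to 3′ on the strand of the gene, and capitals mark TGACG or its reverse complement CGTCA, the core of the cyclic AMP response element. In spermatids this element is a known binding site of the activator CREM.
Acrbp (chr6:125049677-125049976, plus strand): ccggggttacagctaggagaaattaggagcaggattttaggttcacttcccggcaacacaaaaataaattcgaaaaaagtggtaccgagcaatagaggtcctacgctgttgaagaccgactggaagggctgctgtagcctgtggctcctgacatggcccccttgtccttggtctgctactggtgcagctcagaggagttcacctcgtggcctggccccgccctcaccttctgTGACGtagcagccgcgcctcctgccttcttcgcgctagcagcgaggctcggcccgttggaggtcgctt
Crisp2 (chr17:40794097-40794396, minus strand): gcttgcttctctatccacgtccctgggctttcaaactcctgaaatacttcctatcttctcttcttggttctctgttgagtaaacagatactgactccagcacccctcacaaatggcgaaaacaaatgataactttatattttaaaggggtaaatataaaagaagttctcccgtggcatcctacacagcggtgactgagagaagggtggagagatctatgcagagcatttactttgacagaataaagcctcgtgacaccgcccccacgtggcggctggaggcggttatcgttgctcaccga
Izumo1 (chr7:45621561-45621860, plus strand): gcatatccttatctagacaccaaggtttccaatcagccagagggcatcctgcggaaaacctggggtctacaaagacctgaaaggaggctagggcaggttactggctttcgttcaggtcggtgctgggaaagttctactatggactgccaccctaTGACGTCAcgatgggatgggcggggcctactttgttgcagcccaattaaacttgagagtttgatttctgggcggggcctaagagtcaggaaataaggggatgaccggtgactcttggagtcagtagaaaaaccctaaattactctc
Zp3r (chr1:130629557-130629856, minus strand): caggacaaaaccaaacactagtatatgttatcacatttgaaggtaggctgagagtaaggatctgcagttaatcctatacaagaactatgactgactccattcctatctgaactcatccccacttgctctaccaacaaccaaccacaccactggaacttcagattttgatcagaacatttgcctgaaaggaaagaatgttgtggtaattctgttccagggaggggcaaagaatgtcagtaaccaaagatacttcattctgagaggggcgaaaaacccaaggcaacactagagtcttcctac

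Izumo1 held the complete palindrome TGACGTCA 96 bases before the start, a sequence found on either strand in 1.79% of 32851 promoters of the same length. Its core TGACG, searched on both strands and contained in the complete palindrome, was present in 4 of the 9 promoters (Acrbp, Zpbp2, Izumo1 and Tmem95) and in 20.8% of all promoters. In Acrbp the core lay 18 bases before the start. Crisp2 had no such core and held TATAAA, searched on both strands, at 118 and 97 bases before the start, a motif present in 13.6% of all promoters. Zp3r, Spam1, Zpbp and Spaca6 held none of these letters in the window. These matches describe the sequence and carry no information on binding in these testes.

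On GRCm38.p6, Acr lies at chr15:89568326-89578853. Zpbp, Zpbp2 and Tmem95 lie on chromosome 11, Acrbp and Spam1 on chromosome 6, Crisp2 and Spaca6 on chromosome 17, Izumo1 on chromosome 7 and Zp3r on chromosome 1.

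Within Con, the order of the levels ran from Crisp2 at 1209 ± 97.3 FPKM to Zp3r at 0.217 ± 0.131 FPKM (SD, n = 3 each). Crisp2, which encodes a cysteine-rich secretory protein of the acrosome and tail, ranked 17 of the 14514 genes tested. Acrbp, the protein that binds proacrosin and helps to package it, followed at 303.14 to 322.46 FPKM. Next came Zpbp2 at 193 ± 5.47 and Acr, the gene of acrosin, at 147 ± 2.96 FPKM.

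Zpbp, which with its paralog Zpbp2 encodes a zona pellucida binding protein of the acrosomal matrix, stood at 74.4 ± 2.76 FPKM in Con. Izumo1, the sperm ligand of the egg receptor Juno, stood at 51.1 ± 2.26 FPKM. Spaca6, required for fusion, and Spam1, a hyaluronidase on the sperm surface that opens the cumulus, were at 29.7 ± 2.05 and 29.5 ± 3.87 FPKM. The Con values of this last pair overlapped, and for every other pair of neighbours in the order they did not overlap. Tmem95, another membrane protein required for fusion, was at 8.90 ± 1.45 FPKM.

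**Figure D1:**
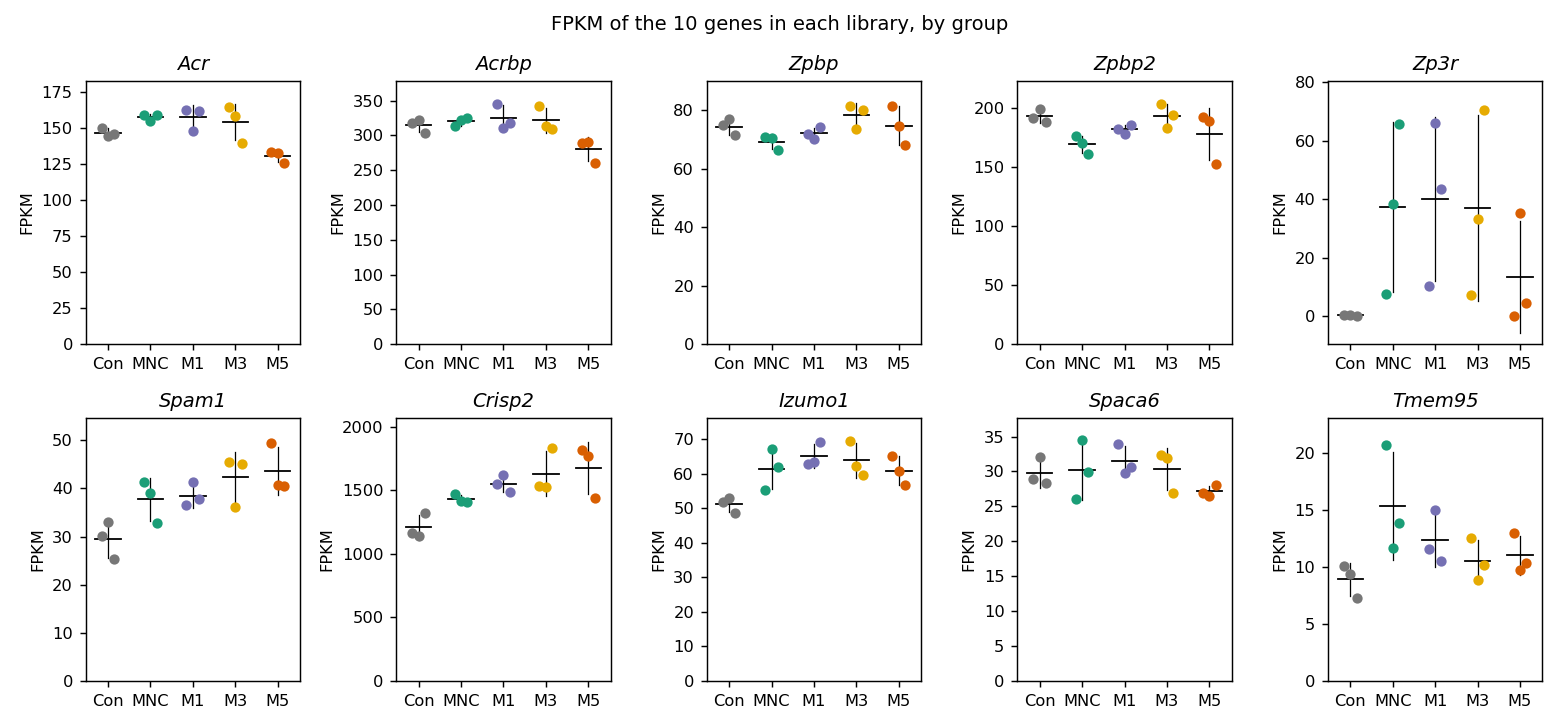
FPKM of the 10 genes in each library, 1 panel per gene, with the 5 groups on the horizontal axis, a point for each library, a bar at the group mean and a line of 1 SD to either side. Acr and Acrbp were lowest in M5, Crisp2 and Izumo1 were lowest in Con, and Zp3r ran from 0.08 to 70.67 FPKM while every other gene stayed within a 2.84-fold range.

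The spread of most of these genes within groups was small. The SD of log2(FPKM + 1) within groups was 0.0694 for Acr and 0.0691 for Acrbp, and a smaller SD was found in 9.3% and 9.1% of the genes tested. The median gene had an SD of 0.134. Spam1 (0.162), Tmem95 (0.270) and Zp3r (1.61) were above it, and the SD of Zp3r was larger than that of 99.8% of the genes.

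Over all 5 groups, limma's moderated F test called 5 of the 10 genes at an adjusted p under 0.05, where 33.6% of all genes tested were called. They were Crisp2 (adjusted p = 0.0162), Acr (0.0171), Spam1 (0.0241), Zp3r (0.0250) and Izumo1 (0.0297). Acrbp was at an adjusted p of 0.0547, Tmem95 at 0.0944, and Zpbp2, Zpbp and Spaca6 lay between 0.188 and 0.423. Of the 5 calls only that of Acr held in each of 23 alternative fits, with an adjusted p between 0.00274 and 0.0463. The count was 1 without Con replicate 1, 2 without Con replicate 2 or 3, and 6 without M3 replicate 3.

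Zp3r encodes sp56, a protein of the acrosomal matrix that binds the zona pellucida and is built of complement control repeats. Its Con libraries were at 0.34, 0.23 and 0.08 FPKM. Those of MNC were at 7.55, 38.42 and 65.89 FPKM, those of M1 at 10.38, 66.25 and 43.44, and those of M3 at 7.25, 33.13 and 70.67. Those of M5 were at 0.15, 35.40 and 4.60 FPKM. Thus all 9 MNC, M1 and M3 libraries lay above the 3 Con libraries, by at least 21.3-fold, whereas M5 overlapped Con because its replicate 1 lay within the Con range. Within MNC, M1 and M3 the highest library exceeded the lowest by 8.73-fold, 6.38-fold and 9.75-fold, and within M5 by 236-fold. In each of these 4 groups the library numbered 1 was the lowest, although the replicate numbers did not pair the libraries across all genes.

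**Figure D2:**
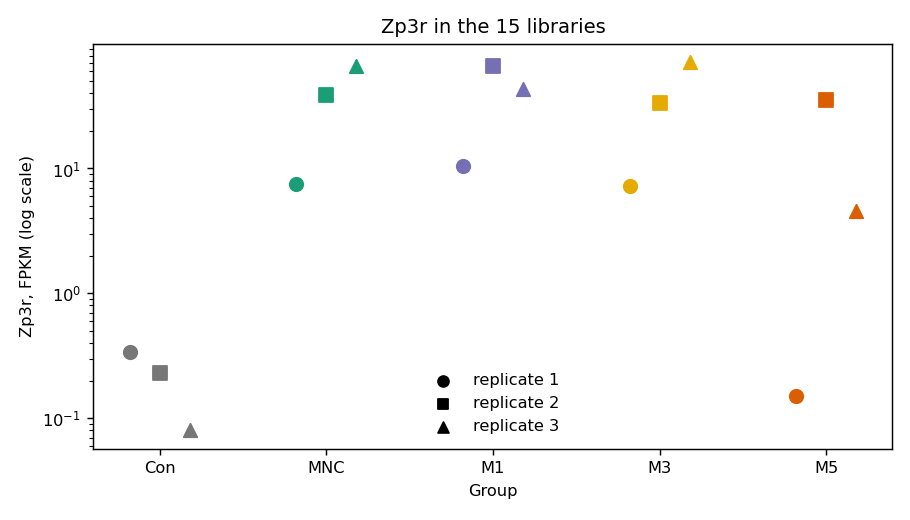
Zp3r in FPKM on a log scale for each of the 15 libraries, with the 5 groups on the horizontal axis and the replicate number as the shape of the point. The Con libraries and M5 replicate 1 lie below 0.35 FPKM, and the other 11 libraries lie between 4.60 and 70.67 FPKM.

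The mean of Zp3r was 172 times that of Con in MNC, 185 times in M1, 171 times in M3 and 61.8 times in M5. On the log2(FPKM + 1) scale, which understates changes of a gene this low in Con, the difference from Con was 4.74 ± 0.614 in M1 (SE; limma, adjusted p = 0.00873). It was 4.54 ± 0.715 in MNC (limma, adjusted p = 0.0195) and 4.49 ± 0.714 in M3 (limma, adjusted p = 0.0258). In M5 it was 2.35 ± 1.12 and did not pass (limma, adjusted p = 0.184). These comparisons share the Con libraries.

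The call in M1 held in all 15 alternative fits. That in MNC was lost without Con replicate 1, Con replicate 2 or MNC replicate 2, and that in M3 without any of the 3 Con libraries in turn, with adjusted p-values up to 0.0866 and 0.114. Both calls were also lost with the replicate number as a block (limma, adjusted p = 0.0587 in MNC and 0.0601 in M3). Without M3 replicate 3 the difference of M3 was 3.79 (limma, adjusted p = 0.0391). Between virus-injected groups, Zp3r did not pass: M5 against MNC gave -2.20 ± 1.32 (limma, adjusted p = 0.354), with overlapping libraries.

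The neighbours of Zp3r on chromosome 1 did not share its range. C4bp, 6287 bases away and a gene of the same complement control family, lay between 0 and 0.320 FPKM. Cd55, 82101 bases away on the other side, lay between 9.55 and 23.8 FPKM and was lowest in MNC replicate 1. Cd55b, a testis form of this complement regulator, was at 33.94 FPKM in MNC replicate 1, and at 92.48 to 161.52 FPKM in the other 14 libraries. MNC replicate 1 was thus the lowest library for Cd55, Cd55b and, within MNC, Zp3r, whereas M5 replicate 1, with Zp3r at 0.15 FPKM, had Cd55b at 157.24 FPKM. Of 5 listed genes of this locus 3 were tested, and limma called Cd55 (log2 difference 0.32 ± 0.0675, adjusted p = 0.0189) and Cd55b (0.28 ± 0.0426, adjusted p = 0.0104) higher in M1 than in Con, where 34.2% of all genes were called, and no gene of the list in MNC, M3 or M5 against Con. This held for M3 without M3 replicate 3.

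Among the genes with the pattern most like that of Zp3r over the 15 libraries, by Pearson r of log2(FPKM + 1), were Nfkbib and Sh3kbp1 (r = 0.882 each) and Sec23a (0.837), and also Cby2, Usp49, Cep89, Ms4a13 and Mgat4f at 0.824 to 0.833. None of these had its range: Nfkbib ran from 52.44 to 77.94 FPKM. The correlations describe 15 libraries in 5 groups and carry no test.

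The comparison of MNC with Con asks how testes given the vector control differ from the other control. All 3 Con libraries lay below the other 12 libraries for 2 of the 10 genes, Crisp2 and Izumo1, and this was the case for 6.25% of all genes tested. Crisp2 was at 1165.50, 1141.28 and 1320.62 FPKM in Con, at 1468.25, 1412.26 and 1409.62 in MNC, and at 1545.87, 1621.67 and 1487.22 in M1. It was at 1528.82, 1522.82 and 1834.97 FPKM in M3 and at 1813.69, 1766.99 and 1437.17 in M5. The highest Con library and the lowest virus-injected library, MNC replicate 3, were thus separated by a narrow gap.

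Izumo1 was at 51.73, 52.93 and 48.56 FPKM in Con and at 55.31, 67.10 and 61.83 in MNC. The M1, M3 and M5 libraries ran from 62.81 to 69.17, from 59.58 to 69.46 and from 56.80 to 64.97 FPKM. Every virus-injected library lay above every Con library for this fusion ligand.

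Spam1 showed the same direction with 1 overlap. It was at 30.08, 32.98 and 25.31 FPKM in Con and at 41.39, 39.13 and 32.81 in MNC, where replicate 3 fell within the Con range. It was at 36.45, 41.24 and 37.79 FPKM in M1, at 45.58, 36.11 and 45.16 in M3 and at 49.43, 40.78 and 40.56 in M5, all above Con.

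The means of Spam1, Crisp2 and Izumo1 were 1.28, 1.18 and 1.20 times those of Con in MNC. They were 1.31, 1.28 and 1.27 times in M1, 1.44, 1.35 and 1.25 times in M3, and 1.48, 1.38 and 1.19 times in M5. In M1 against Con limma called all 3 genes and Zp3r, 4 of 10, where 34.2% of all genes were called. In M3 against Con the same 4 genes were called, where 22.1% of all genes were, and without M3 replicate 3 the genes called were 3 of 10 and 14.5% of all. In M5 against Con the 3 genes without Zp3r were called, with 21.7% of all genes.

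The adjusted p-values (limma) against Con were 0.0310 for Spam1, 0.0153 for Crisp2 and 0.0111 for Izumo1 in M1. They were 0.0374, 0.0349 and 0.0344 in M3, and 0.0226, 0.0350 and 0.0440 in M5. In MNC, the differences of these genes were of the same sign but did not pass, with 0.35 ± 0.123 for Spam1 (limma, adjusted p = 0.0867), 0.24 ± 0.0678 for Crisp2 (0.0502) and 0.26 ± 0.0789 for Izumo1 (0.0632).

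The calls of these 3 genes against Con were sensitive to single libraries and, for Crisp2 and Izumo1, to the scaling. The call of Izumo1 in M1 held in all 15 alternatives, with an adjusted p between 0.00659 and 0.0470. That of Crisp2 in M1 was lost without Con replicate 1 or M1 replicate 1, and that of Spam1 without Con replicate 1 or any M1 library, with adjusted p-values up to 0.0623 and 0.0781. In M3 and M5, each of the 3 genes lost its call without 4 or 5 of the 6 libraries compared in turn, Con replicate 1 and replicate 1 of the knockdown among them, with adjusted p-values up to 0.126 and 0.141. Without M3 replicate 3, the difference of M3 from Con was 0.34 for Crisp2 (limma, adjusted p = 0.0495), 0.36 for Izumo1 (0.0404) and 0.46 for Spam1 (0.0758). After quantile normalization the difference of Crisp2 from Con was 0.15 in M1 (limma, adjusted p = 0.0812), 0.17 in M3 (0.0998) and 0.20 in M5 (0.0343). The calls of Crisp2 in M1 and M3 were thus lost. After median centring the calls in M5 were lost for Crisp2 (0.52, limma, adjusted p = 0.0972) and Izumo1 (0.30, adjusted p = 0.111).

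Against Con the median of all genes tested was shifted, by -0.095 on the log2 scale in MNC, -0.115 in M1, -0.129 in M3 and -0.044 in M5. Relative to this shift the difference of Crisp2 was 0.34 in MNC, 0.48 in M1, 0.56 in M3 and 0.51 in M5, and that of Izumo1 was 0.35, 0.46, 0.44 and 0.29. The median over the 10 genes as measured was 0.173 in MNC, 0.221 in M1, 0.143 in M3 (0.184 without M3 replicate 3) and 0.126 in M5.

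The MNC and Con libraries also did not overlap for Acr and Tmem95, higher in MNC, and for Zpbp and Zpbp2, lower in MNC. Acr (0.10 ± 0.0388) and Zpbp (-0.10 ± 0.0497) did not pass (limma, adjusted p = 0.104 and 0.176). The share of all genes separated in this way is not given here. Zpbp2 was at 191.17, 198.88 and 188.31 FPKM in Con and at 175.92, 169.73 and 161.01 in MNC, so the MNC libraries were all lower. The difference was -0.19 ± 0.0496 (limma, adjusted p = 0.0435), or -0.10 relative to the median of all genes, and the call was lost in 11 of 15 alternatives, with adjusted p-values up to 0.147 over these. Among them were the fits without any single Con library, MNC replicate 2 or MNC replicate 3. After quantile normalization the difference of Zpbp2 was -0.29. With Zp3r, Zpbp2 made 2 of 10 genes called in MNC against Con, where 20.4% of all genes were called, and 7 of the 10 had an unadjusted p under 0.05, as did 40.1% of all genes.

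Tmem95 was at 10.06, 9.36 and 7.28 FPKM in Con and at 20.69, 11.61 and 13.80 in MNC. Every MNC library was above Con, and MNC replicate 1 was the highest of all 15. The difference of 0.70 ± 0.216 did not pass (limma, adjusted p = 0.0651). In M1, M3 and M5 it was 0.43, 0.21 and 0.28, with adjusted p-values (limma) of 0.0737, 0.311 and 0.222. Without M3 replicate 3 it was 0.23 in M3 (limma, adjusted p = 0.362).

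**Figure D3:**
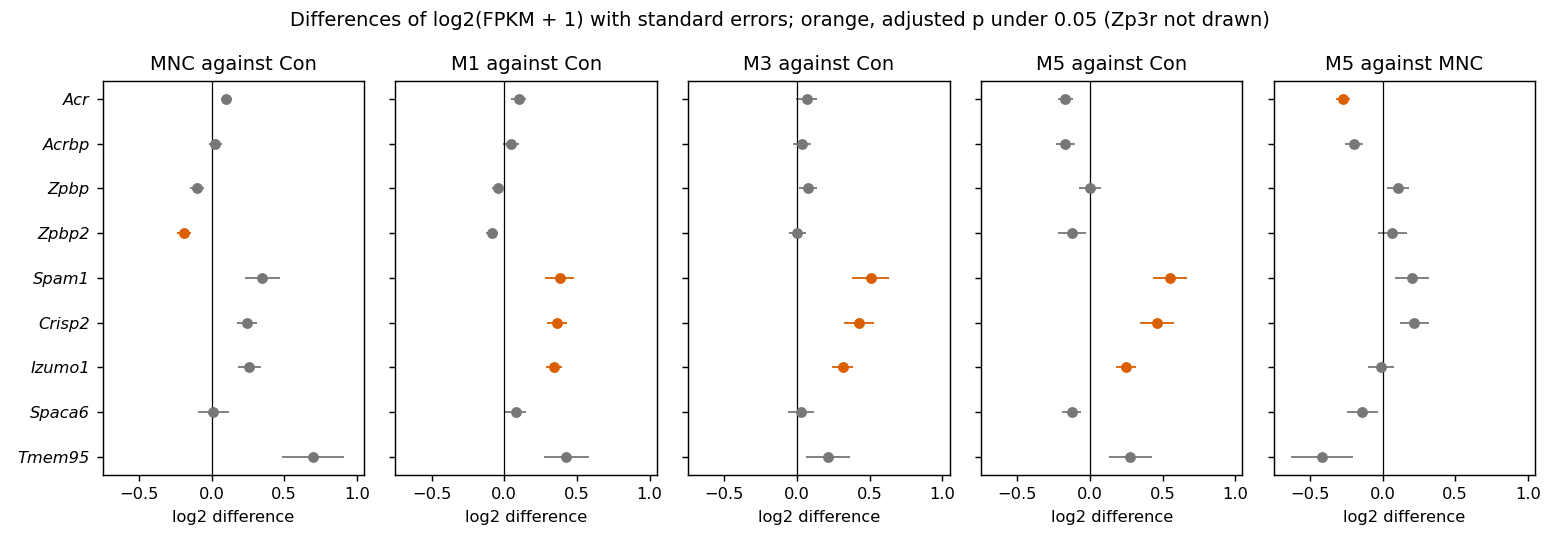
Differences of log2(FPKM + 1) for 9 of the genes, drawn as points with 1 SE to either side, in panels for MNC, M1, M3 and M5 against Con and for M5 against MNC, with calls at an adjusted p under 0.05 (limma) in orange. Spam1, Crisp2 and Izumo1 lie above 0 in all 4 panels against Con, Acr is called below 0 in M5 against MNC, and Zp3r is left out because its differences reach 4.74.

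Markers of spermatids moved along with Crisp2, Izumo1 and Spam1. The 8 markers of elongating spermatids, among them the protamine genes Prm1 and Prm2, summed to 11775 to 22663 FPKM in Con and to 23878 to 33243 FPKM in the other groups, with no overlap. Those of round spermatids summed to 1305 to 1405 FPKM in Con and to at least 1536 FPKM elsewhere. Of the elongating markers limma called 3 higher in MNC, 5 in M1, 5 in M3 and 3 in M5. Of the round markers it called 4, 6, 3 and 2 higher. Among all genes, 20.4%, 34.2%, 22.1% and 21.7% were called in either direction. Without M3 replicate 3, M3 had 3 of each list called higher (14.5%). Tnp2 did not rise in M5, at 2798.39 to 3660.6 FPKM against 2613.8 to 4709.9 in Con. The 8 spermatocyte markers went the other way from the spermatid sums. They summed to 665 to 718 FPKM in Con, 532 to 561 in MNC, 539.7 to 588 in M1 and 570.5 to 655 in M3. M5, at 628 to 687 FPKM, overlapped Con. Of these 8, limma called 6 lower in MNC, 7 in M1 and 0 in M3 (3 without M3 replicate 3). In M5 it called 1 lower and 1 higher. The shares of all genes called are those given above for the spermatid markers. All defining markers of these classes were detected, and their part in the differences of the fusion and surface genes was not tested. Acrv1 and Spaca1 among the round markers, and Tex101 among the spermatocyte markers, are also counted in the lists of related genes below. The counts of these lists are therefore not independent.

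Con differed in tissue markers as well. The 8 Sertoli cell markers summed to 95.5 to 112 FPKM in Con, above MNC (79.4 to 88.7), M1 (79.4 to 88.2) and M3 (78.5 to 86.0), while M5 (80.5 to 137) overlapped. Of these, limma called 1 lower in MNC, 6 in M1, 5 in M3 (2 without M3 replicate 3) and 0 in M5. The share of all genes called, in either direction, was 20.4% in MNC, 34.2% in M1 and 21.7% in M5. In M3 it was 22.1%, or 14.5% without M3 replicate 3. The 5 markers of peritubular myoid cells summed to 45.4 to 50.1 FPKM in Con and 34.1 to 40.6 in MNC. Limma called 2 of the 5 lower in MNC, where 20.4% of all genes were called. The 8 markers of epididymal epithelium summed to 19.0 to 55.1 FPKM in Con, to 1.07 to 22.5 in M3 and to at most 0.630 in MNC, M1 and M5. Of its defining markers, Lcn5 and Lcn8 were at 0 in 14 of the 15 libraries and Spink11 in 12. Crisp1, the epididymal relative of Crisp2 in this list, was at 32.26, 2.86 and 12.15 FPKM in Con and at 0.03 in each MNC library. It was called lower in MNC by -3.53 ± 0.720 (limma, adjusted p = 0.0277), opposite in direction to Crisp2. Markers of the interferon response summed to 10.7 to 11.5 FPKM in Con and to 14.2 to 70.8 FPKM in virus-injected testes. The part of these markers in the differences from Con was not tested.

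The comparison of M5 with MNC asks what knockdown of the M5 receptor changes beyond the vector. Acr fell and Acrbp had the same sign. In M5 the 3 libraries held 133.07, 132.21 and 125.37 FPKM of Acr, against 158.72, 154.82 and 158.48 FPKM in MNC. Con, at 149.82, 144.12 and 145.60 FPKM, M1, at 162.06, 147.48 and 161.84, and M3, at 164.16, 158.10 and 139.70, were all above M5, and M3 replicate 3 came nearest to it.

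The M5 libraries held 289.11, 290.74 and 260.17 FPKM of Acrbp, and those of MNC 313.09, 322.60 and 325.06. It was at 317.37, 322.46 and 303.14 FPKM in Con, at 345.91, 310.93 and 318.30 in M1 and at 342.64, 313.57 and 309.57 in M3. For both the protease and its binding protein the 3 M5 libraries were the lowest of the 15, which held for 2 of the 10 genes and for 3.29% of all genes tested.

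Acr differed between M5 and MNC by -0.27 ± 0.050 (limma, adjusted p = 0.0363), so that it fell by 17.2% on this scale, and it was 1 of 10 genes called where 5.65% of all genes were. Acrbp differed by -0.19 ± 0.0624 and did not pass (limma, adjusted p = 0.117). The call of Acr was lost in 8 of 15 alternatives, among them without any 1 of the MNC libraries, without M5 replicate 1 and without M5 replicate 2, with adjusted p-values between 0.0841 and 0.145. Its difference stayed between -0.31 and -0.24 in all of them.

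Against M1, Acr in M5 differed by -0.27 ± 0.0565 (limma, adjusted p = 0.0438), the only one of the 10 genes called in that comparison, where 6.75% of all genes were called. The call was lost without any M1 library, M5 replicate 1 or M5 replicate 2, with adjusted p-values up to 0.171. Against Con, Acr in M5 differed by -0.17 ± 0.050 (limma, adjusted p = 0.0552) and Acrbp by -0.17 ± 0.0651 (adjusted p = 0.115). Against M3, none of the 10 genes was called by limma, where 0.0138% of all genes were. An unadjusted p under 0.05 was found for 2 of the 10 and for 14.3% of all genes. Acr, at -0.24 ± 0.0783, and Acrbp, at -0.20 ± 0.0776, were these 2 genes (limma, adjusted p = 0.338 each). Without M3 replicate 3 the count of genes called was again 0 of 10, while that of all genes went from 2 to 188. The comparisons of M5 share the M5 libraries.

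The 8 spermatocyte markers summed to 628 to 687 FPKM in M5 and to 532 to 561 in MNC, with no overlap. Limma called 2 of them higher in M5, where 5.65% of all genes were called. Round spermatid markers summed to 1536 to 1682 FPKM in M5 and to 1639.7 to 1716 in MNC, which overlapped. Limma called 0 of these 8 and 3 were higher in M5, with a median log2 difference of -0.165, against 0.025 over all genes. Acrv1, Tssk1, Sun5 and Catsper1 were lower in every M5 library than in any MNC library, whereas Pgk2, the most abundant, overlapped. The 8 elongating spermatid markers summed to 23878 to 33243 FPKM in M5 and to 24517 to 30797 in MNC. Of these, 4 were higher in M5, and limma called 1 lower and 0 higher. Red blood cell genes summed to 148 to 491 FPKM in M5 against 21.8 to 98.9 FPKM in the other groups. The part of these markers in the differences of Acr and Acrbp was not tested.

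Crisp2 and Acr therefore stood in different proportion in M5. The ratio of Crisp2 to Acr was 11.5 to 13.6 in M5, 7.78 to 9.07 in Con and 8.89 to 9.25 in MNC. Every M1 and M3 library was also below M5 except M3 replicate 3, at 13.1. The ratio of Acr to Acrbp stayed between 0.447 and 0.508 in all 15 libraries. The ratio of Izumo1 to Spaca6 was 1.65 to 1.79 in Con and 1.85 to 2.41 elsewhere, and that of Zpbp2 to Zpbp was 2.55 to 2.64 in Con and 2.23 to 2.53 elsewhere. The ratios were chosen after the values were seen and are given without a test.

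**Figure D4:**
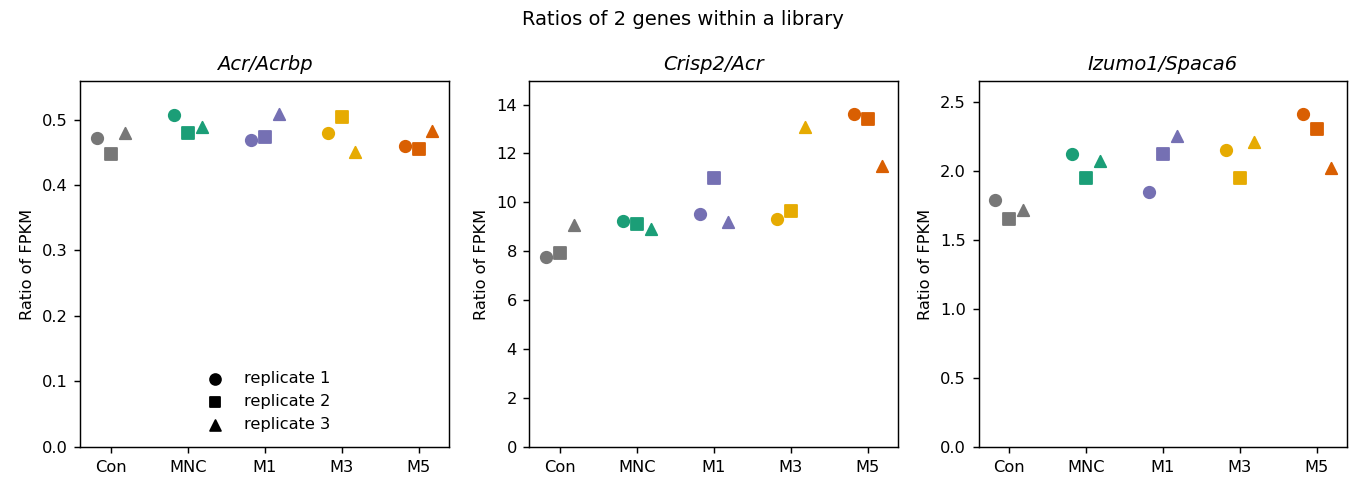
Ratios of FPKM of a pair of genes within each of the 15 libraries for Acr to Acrbp, Crisp2 to Acr and Izumo1 to Spaca6, with the groups on the horizontal axis, the ratio from 0 on the vertical axis and the replicate number as the shape of the point. Acr to Acrbp stays between 0.447 and 0.508, M5 and M3 replicate 3 are highest for Crisp2 to Acr, and Con is lowest for Izumo1 to Spaca6.

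Spaca6 and Zpbp were called in no comparison. Spaca6 was at 28.86, 32.08 and 28.28 FPKM in Con and at 26.12, 34.48 and 29.88 in MNC. It ran from 29.78 to 33.89 FPKM in M1, from 26.91 to 32.35 in M3 and from 26.44 to 28.06 in M5, and M5 lay below M1 in all libraries (-0.20 ± 0.0652, limma, adjusted p = 0.113). Zpbp lay between 66.47 and 81.53 FPKM in all libraries, a range of 1.23-fold that was the narrowest of the 10 genes. Tmem95 and Acrbp were not called in any comparison either.

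No difference of M1 or M3 from the vector control passed the test in these genes. In M1 against MNC limma called 0 of the 10 genes and 0% of all genes. An unadjusted p under 0.05 was found for 1 of the 10 and for 5.94% of all genes. In M3 against MNC limma called 0 of 10 and 0.00689% of all genes, and 2 of the 10 and 9.43% of all genes had an unadjusted p under 0.05. Between M1 and M3, 0 of 10 genes and 0% of all genes were called. None of the 10 had an unadjusted p under 0.05, where 4.63% of all genes did. All 3 counts of the 10 genes called were 0 in every alternative fit, that without M3 replicate 3 included.

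Over the 15 libraries some of the genes varied together. Acr and Acrbp correlated with a Pearson r of 0.88, which was 0.65 after the group means were removed. Zpbp and Zpbp2 correlated with 0.86, and with 0.90 after removal of the group means. Spam1 correlated with Crisp2 at 0.75 and with Izumo1 at 0.67, and after removal of the group means at 0.19 and 0.27, so these associations lay mostly between the groups. Other pairs were also close after this removal: Zpbp with Spam1 at 0.78, Spam1 with Tmem95 at 0.68 and Acrbp with Zpbp2 at 0.66. Before it, Spaca6 correlated with Acrbp at 0.65 and with Acr at 0.60. The points are libraries that share groups and a common scaling, and no test is given.

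**Figure D5:**
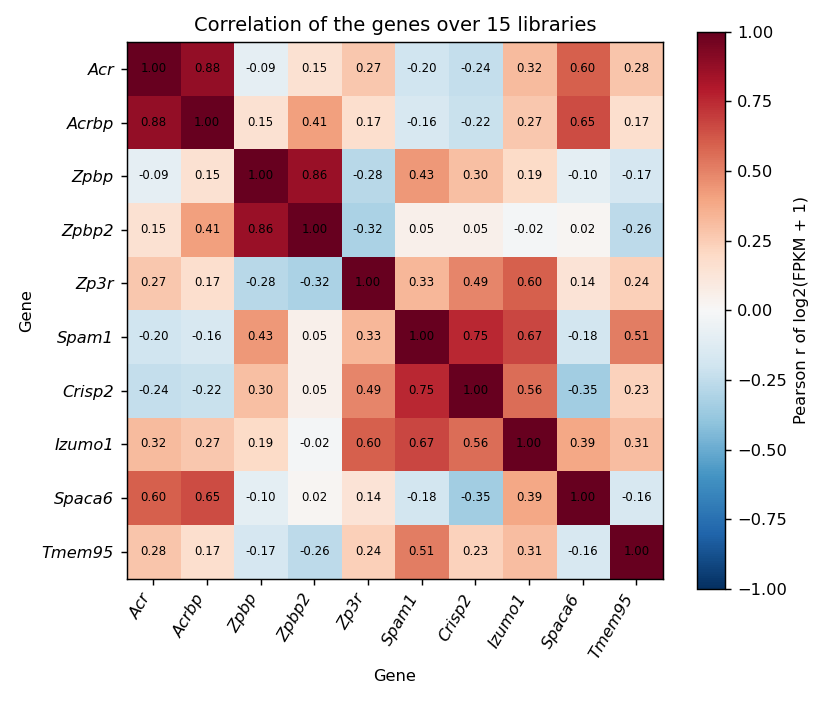
Pearson r of log2(FPKM + 1) over the 15 libraries for each pair of the 10 genes, on a colour scale from -1 to 1 with the value printed in each cell. Acr with Acrbp (0.88) and Zpbp with Zpbp2 (0.86) are highest.

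Among all genes tested, the profile most like that of Acr was that of Svbp (r = 0.985), then Rfc2 (0.958) and Ccnk (0.955). Svbp had 89.84, 92.15 and 83.92 FPKM in M5, 95.89 in M3 replicate 3 and 100.62 or more in every other library. For Acrbp the nearest profiles were Msto1, Bspry and Slc22a15 (0.901 to 0.916). For Crisp2 they were Dcun1d1 (0.977), Dnajb4 and 4930453N24Rik.

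The nearest profiles for Spam1 were Ccdc81 (0.954), Fam24b (0.953) and Hyal5 (0.951). Hyal5, another sperm hyaluronidase, is also the next gene of Spam1 on chromosome 6, 56889 bases away, and ran from 54.25 FPKM in Con replicate 3 to 80.26 FPKM in M5 replicate 1, the same lowest and highest libraries as Spam1. Hyal4, on the other side at 24669 bases, did not exceed 0.360 FPKM.

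For Zpbp the nearest profiles were Pabpc2, Gk2 and Ttc25 (0.903 to 0.943) and for Zpbp2 they were Mkrn1, Cdc27 and Dpy19l2 (0.902 to 0.922). For Izumo1 they were 4930562C15Rik, an unnamed gene of the table (BGI_novel_G001085) and Spata31 (0.911 to 0.912). For Spaca6 they were Fbxo34, Xntrpc and Acp4 (0.845 to 0.918), and for Tmem95 Lyrm7, Gm20865 and Rpain (0.896 to 0.920). Zpbp overlaps Spata48 on chromosome 11 and Spaca6 overlaps Has1 on chromosome 17, and reads of overlapping genes may be counted for either. Spata48 was at 38.4 to 58.8 FPKM and Has1 at most at 0.310 FPKM. Only the bounds of the genes were compared, so whether reads were shared is not known.

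Other genes of the acrosome showed both directions against Con. Of 14 further genes of acrosomal content and proteases, all tested, limma called 5 higher and 1 lower in MNC, 7 and 1 in M1, 6 and 0 in M3, and 3 and 3 in M5. The share of all genes called, in either direction, was 20.4% in MNC, 34.2% in M1, 22.1% in M3 and 21.7% in M5. Without M3 replicate 3 the count in M3 was 5 higher and 0 lower, with 14.5% of all genes called. The median difference in MNC was 0.255 on the log2 scale, against -0.095 over all genes. Tmprss12, an acrosomal serine protease, was called lower in MNC at -0.35 ± 0.0854 (limma, adjusted p = 0.0380) and was at 12.8 FPKM in Con.

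Of 12 further sperm membrane and fusion genes tested, 5 were called higher and 2 lower in MNC against Con, where 20.4% of all genes were called. The largest differences were those of Llcfc1, a secreted fusion factor, at 0.54 ± 0.0587 (limma, adjusted p = 0.0158), and Tmem81, at 0.47 ± 0.0571 (adjusted p = 0.0162). Llcfc1 rose from 204.83, 218.22 and 226.14 FPKM in Con to 323.93, 323.11 and 296.88 in MNC. Spaca4, at 0.44 ± 0.0613 (adjusted p = 0.0175), and Izumo2, at 0.39 ± 0.0836 (adjusted p = 0.0300), were higher as well. The tetraspanin gene Cd81 was lower, at -0.29 ± 0.0672 (limma, adjusted p = 0.0339). The counts were 5 and 1 in M1 (34.2% of all genes called), 5 and 1 in M3 (22.1%), and 4 and 1 in M5 (21.7%). Without M3 replicate 3 they were 6 and 0 in M3 (14.5%).

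Of 12 chaperone and zona binding genes tested, 1 was called higher and 4 lower in MNC against Con, where 20.4% of all genes were called, and the median difference was 0.014 against -0.095 over all genes. Adam1a, part of a sperm metalloprotease pair, was higher at 0.40 ± 0.0554 (limma, adjusted p = 0.0175). Adam2 (-0.32 ± 0.0411, adjusted p = 0.0168) and Tex101 (-0.37 ± 0.0801, adjusted p = 0.0314), which act in sperm migration and zona binding, were lower. In this list, M1 had 2 higher and 4 lower (34.2% of all genes called), M3 had 3 and 1 (22.1%), and M5 had 2 and 3 (21.7%). Without M3 replicate 3, M3 had 1 and 0 (14.5%).

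Between M5 and MNC, limma called 2 of the 14 acrosomal genes, 2 of the 12 membrane and fusion genes and 0 of the 12 chaperone and zona binding genes, where 5.65% of all genes were called. Of the acrosomal genes, Spaca7 was higher at 0.30 ± 0.0616 (adjusted p = 0.0441) and Pcsk4, a proprotein convertase of the acrosome, was lower at -0.49 ± 0.0648 (adjusted p = 0.0181). The M5 libraries held 46.69, 48.01 and 50.49 FPKM of Pcsk4, with 50.51 in M3 replicate 3, and 54.44 or more in every other library. Acr and Pcsk4 were thus low in the same 4 libraries.

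Members of the Izumo family went in both directions between M5 and MNC. Izumo2 was higher in M5 at 0.43 ± 0.0861 (limma, adjusted p = 0.0427), with 177.24, 170.46 and 153.33 FPKM against 113.16, 122.83 and 134.52 in MNC. Izumo4 was lower at -0.39 ± 0.0790 (adjusted p = 0.0444), with 61.58, 63.16 and 56.41 FPKM against 72.51, 85.09 and 80.49. M3 replicate 3 lay within the M5 range for Izumo2, at 171.82 FPKM, and between the M5 and MNC ranges for Izumo4, at 69.82 FPKM. Izumo3 was not called, but its M5 libraries, at 97.23 to 128.01 FPKM, all lay above those of MNC, at 80.65 to 87.03. Izumo1, the member with a known egg receptor, differed by -0.01 ± 0.0885 (limma, adjusted p = 0.958).

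Against M1, M5 had 1 of the 14 acrosomal genes called higher and 2 lower by limma, and of the 12 membrane and fusion genes 0 higher and 2 lower, where 6.75% of all genes were called. Izumo4 was lower at -0.61 ± 0.0564 (limma, adjusted p = 0.00692), Pcsk4 at -0.42 ± 0.0629 (adjusted p = 0.0196), Dcst2 at -0.27 ± 0.0529 (adjusted p = 0.0357) and Acrv1 at -0.24 ± 0.0436 (adjusted p = 0.0312), and Spaca7 was higher at 0.28 ± 0.0546 (adjusted p = 0.0381). Dcst2 encodes a sperm membrane protein required for fusion, and Acrv1 a protein of the acrosomal matrix. Between M5 and Con, Izumo2 and Izumo3 were both higher at 0.82 (limma, adjusted p = 0.00326 and 0.00696) and Izumo4 was lower at -0.66 ± 0.0614 (adjusted p = 0.00305). These 3 genes were also called in the same directions in MNC against Con. There the differences were 0.39 for Izumo2, 0.36 for Izumo3 and -0.27 for Izumo4 (limma, adjusted p = 0.0300, 0.0179 and 0.0407).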

How the data were processed

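RNA was measured in 15 testis libraries, and the group and replicate of each library were taken from its title. For M5 replicate 2, the label's description gives the column name of replicate 1, and the title was followed. The titles name testis, while the extraction text speaks of sperm. The authors sequenced poly(A) RNA on an Illumina HiSeq, mapped reads to reference genes with SOAPaligner and deposited 1 table of FPKM to 2 decimals, while their methods speak of RPKM. The submitters' processing notes name mm10, and names, positions and promoters came from RefSeq on GRCm38.p6.

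Values were analysed as log2(FPKM + 1) with limma 3.58.1 (lmFit, eBayes with trend) in R 4.3.3, in place of the study's test, which models counts. Each fit held the 2 groups compared, restricted to genes whose FPKM averaged at least 1 across libraries. The F test used all 15 libraries. Benjamini-Hochberg adjustment ran over all 14514 genes tested, tests were two-sided, and the threshold was 0.05. The fits were tested on simulated data.

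Named from the lists of related genes were those called with the largest change, up to 5 in each direction per comparison, and for each of the 10 genes those with the highest Pearson r and the nearest on each side. Some genes that this rule names are not reported here. The members and lists were chosen with earlier results of these data known. Alternatives were a pseudocount of 0.1, filters at 0.1, at 5 and none, centring, quantile normalization, eBayes without trend, a single fit of all 5 groups, a block for the replicate number, and leaving out each library. Tables were made with pandas 2.3.3 and numpy 2.4.6 in Python 3.11.15.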

Additional observations from a re-analysis of the deposited data

How the results depend on the processing

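None of the 15 called differences of the 10 genes changed sign under any alternative. Of 85 differences that were not called, 33 changed sign under at least 1 alternative (78 of 1275 values) and 13 were called under at least 1. The number of the 10 genes called in MNC against Con, 2, became 1 with a filter at a mean FPKM of 0.1, with no filter or with eBayes without trend, and 5 with a filter at 5. For M5 against MNC, 1, it became 0 with centring or without trend and 2 with all 5 groups in one fit. For M3 against Con, 4, it became 2 with a filter at 0.1 and 1 with no filter. For M5 against Con, 3, it became 1 with a filter at 0.1, no filter or centring and 5 with quantile normalization. For M5 against M1, 1, it became 0 with a filter at 0.1, no filter, centring or without trend and 2 with all 5 groups in one fit. In each of these cases the cause was not tested. The values of the gene lists without M3 replicate 3 were added after the data were seen.

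Leaving out 1 library at a time gave 0 to 3 genes in MNC against Con, 0 to 2 in M5 against MNC, 2 to 4 in M1 against Con, 0 to 3 in M3 against Con, 0 to 4 in M5 against Con, 0 to 1 in M5 against M1 and 1 to 6 in the F test. The counts were 0 under every alternative for M1 and M3 against MNC, M5 against M3 and M1 against M3. The numbers of all genes called moved too: leaving out 1 library gave 8 to 2497 genes in MNC against Con (2967 with all), 35 to 946 in M5 against MNC (820), 1259 to 4386 in M1 against Con (4969), 0 to 2695 in M3 against Con (3210), 708 to 5263 in M5 against Con (3143), 56 to 1690 in M5 against M1 (980), 0 to 188 in M5 against M3 (2) and 2518 to 5835 in the F test (4878). With 3 libraries per group a leave-one-out fit holds fewer samples.

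Libraries with the same replicate number did not deviate together: over 30 pairs the correlation of their deviations from the group means ran from -0.40 to 0.19, and 5 were over 0.1, so the numbers do not pair the libraries. With the replicate number as a block, 0 of the 10 genes were called in MNC against Con, M5 against MNC, M3 against Con, M5 against Con and M5 against M1, and 5 in M1 against Con. Of all genes tested, the block left 10 called in MNC against Con, 14 in M5 against MNC and 0 in M3 against Con. It left 573 in M5 against Con and 39 in M5 against M1, but 4132 in M1 against Con. The counts of the 10 genes under the block thus followed those of all genes and are not particular to these genes. The absolute depth is unknown, so no limit of detection can be given for genes as low as Zp3r in Con.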
